A study of Sus scrofa with 26 samples.

Results

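The SLC25 family holds related carrier proteins, most of them in the mitochondrial inner membrane, that let nucleotides, phosphate, carboxylates, amino acids, acylcarnitines and cofactors cross between the cytosol and the matrix. In a fat cell these carriers link both compartments of metabolism. The citrate carrier exports the carbon from which fatty acids are built, the ADP/ATP and phosphate carriers supply and empty ATP synthase, and the acylcarnitine carrier brings fatty acids in for oxidation. Here the family was followed in the subcutaneous adipose tissue (SCAT) of pigs kept at thermoneutrality (TN) or under heat stress (HS).

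Members were all probes of the array, control spots aside, whose gene name begins with SLC25A, either as printed in the scanner files or as given by the accession or description of the probe. This gave 97 probes for 35 genes, among 60305 probes in all, of which 70 carried the gene name itself and 8 were named only from a description of similarity to another species. Of these, 88 probes for 31 genes were well above background on at least 8 of 26 arrays and were tested together with all 44703 probes that passed this filter. No member spot was saturated. SLC25A12 (an aspartate/glutamate carrier), SLC25A25 (an ATP-Mg/phosphate carrier), SLC25A30 and SLC25A31 (an ADP/ATP carrier of the germ line) had no member probe past the filter, so for these probes only a signal not well above background on most arrays can be stated. Some family members carry no SLC25A name in the files and were not counted. These are probes named MCART1 and probes described only by similarity to a mitochondrial carrier triple repeat protein, to mitoferrin-2 (the SLC25A28 protein) or to Aralar1 (the SLC25A12 protein), so SLC25A12 and SLC25A28 were not read by every probe that may belong to them. The uncoupling proteins UCP2 and UCP3 and the carrier homologues MTCH1 and MTCH2 are also of this family and were kept with the transport genes described further on.

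One pig was measured per array. The animals were castrated males of the Creole breed, the Large White breed (LW) and their cross (F1), and the groups held 3 Creole TN, 4 F1 TN, 4 LW TN, 5 Creole HS, 5 F1 HS and 5 LW HS pigs. TN pigs were kept at 24 °C and slaughtered before the temperature rose. HS pigs were slaughtered after 4 or 5 days of heat, so temperature, day of slaughter and age at slaughter cannot be told apart. The study also reported lower feed intake under heat, which cannot be told apart from temperature either. The sample labels give the heat as 30 °C, whereas the growth protocol gives 32 °C. Pigs entered the climatic room aged 11 weeks and were given time to adapt at 24 °C. Litters and pens were shared among pigs by design but are not part of the labels. Arrays lay on 5 slides, each of which held both temperatures. Between 68.5% and 76.6% of spots were well above background on each array. All 7 adipocyte markers, among them FABP4, ADIPOQ and PLIN1, were above background on 26 arrays. Markers of skeletal muscle were also present, with a mean log2 level over 11 genes of 9.49 to 14.1 per array, and none of these 11 passed the test by temperature or by breed.

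Several genes were read by more than one 60-base probe, and the printed sequences below show how independent those readings are. The files name both probes of the first pair for the citrate carrier SLC25A1, but they lie on opposite strands, so they cannot both read the same strand of its RNA. The capitals mark 51 bases of the second probe that are the reverse complement of the capitals of the first. The next pair reads the phosphate carrier SLC25A3 and shares the 56 bases in capitals, so it is close to a repeated reading of one site. The third pair reads the ADP/ATP carrier SLC25A6 and overlaps by the 28 bases in capitals. Each is printed 5′ to 3′ as in the scanner files.
SLC25A1 A_72_P413103: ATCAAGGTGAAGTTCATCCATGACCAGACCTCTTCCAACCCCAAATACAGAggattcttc
SLC25A1 O11572: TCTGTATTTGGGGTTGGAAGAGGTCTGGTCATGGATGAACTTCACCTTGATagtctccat
SLC25A3 A_72_P590834: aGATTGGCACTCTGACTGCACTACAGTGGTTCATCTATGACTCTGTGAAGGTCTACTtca
SLC25A3 A_72_P373593: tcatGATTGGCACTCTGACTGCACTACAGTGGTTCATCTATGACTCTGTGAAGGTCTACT
SLC25A6 A_72_P518065: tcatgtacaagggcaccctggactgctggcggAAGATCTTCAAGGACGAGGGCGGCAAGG
SLC25A6 A_72_P539354: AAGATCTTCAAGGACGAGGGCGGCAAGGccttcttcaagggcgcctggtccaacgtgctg

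Next come 2 probes of the ADP/ATP carrier SLC25A5 that share no stretch of 25 bases, and the probe of SLC25A21, the carrier of 2-oxoadipate and related dicarboxylates.
SLC25A5 A_72_P679401: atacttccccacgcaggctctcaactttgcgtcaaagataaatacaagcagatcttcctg
SLC25A5 A_72_P679627: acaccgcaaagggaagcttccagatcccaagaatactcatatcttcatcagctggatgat
SLC25A21 A_72_P102306: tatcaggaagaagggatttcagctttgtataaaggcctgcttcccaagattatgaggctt

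Probes of different carriers shared no stretch of 25 bases. For the ADP/ATP carriers SLC25A4 and SLC25A5, 1 probe of each is shown over the 25 bases in which they align without a gap, with the 3 bases that differ in capitals, because SLC25A4 gave -0.07 (adjusted p = 0.621) and this probe of SLC25A5 gave -0.46 (adjusted p = 0.00019) between HS and TN pigs.
SLC25A4 A_72_P113671: gtAttgtatgatgaGatcaaAaagt
SLC25A5 A_72_P635011: gtCttgtatgatgaAatcaaGaagt

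Under heat stress, more of the carriers fell than rose. With 1 probe standing for each gene (its brightest tested probe), 10 of 31 genes were lower and 3 were higher in HS than in TN pigs after adjustment over all 44703 probes (limma, Benjamini-Hochberg adjusted p below 0.05, breed in the model). Over all named genes measured in this way, 7.66% were lower and 4.92% were higher. At the level of probes, 35 of 88 were lower and 7 were higher, against 7.02% and 5.16% of all tested probes, but probes of one gene are not independent of each other. The median log2 difference over the 31 genes was -0.17, beside -0.00396 over all named genes, and 23 of the 31 differences were negative. In a tissue sample, fewer cells of one type and less RNA per cell cannot be told apart. Leaving out LW TN replicate 2 reduced the count from 13 genes to 8, and leaving out any other single array gave 9 to 14.

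**Figure D1:**
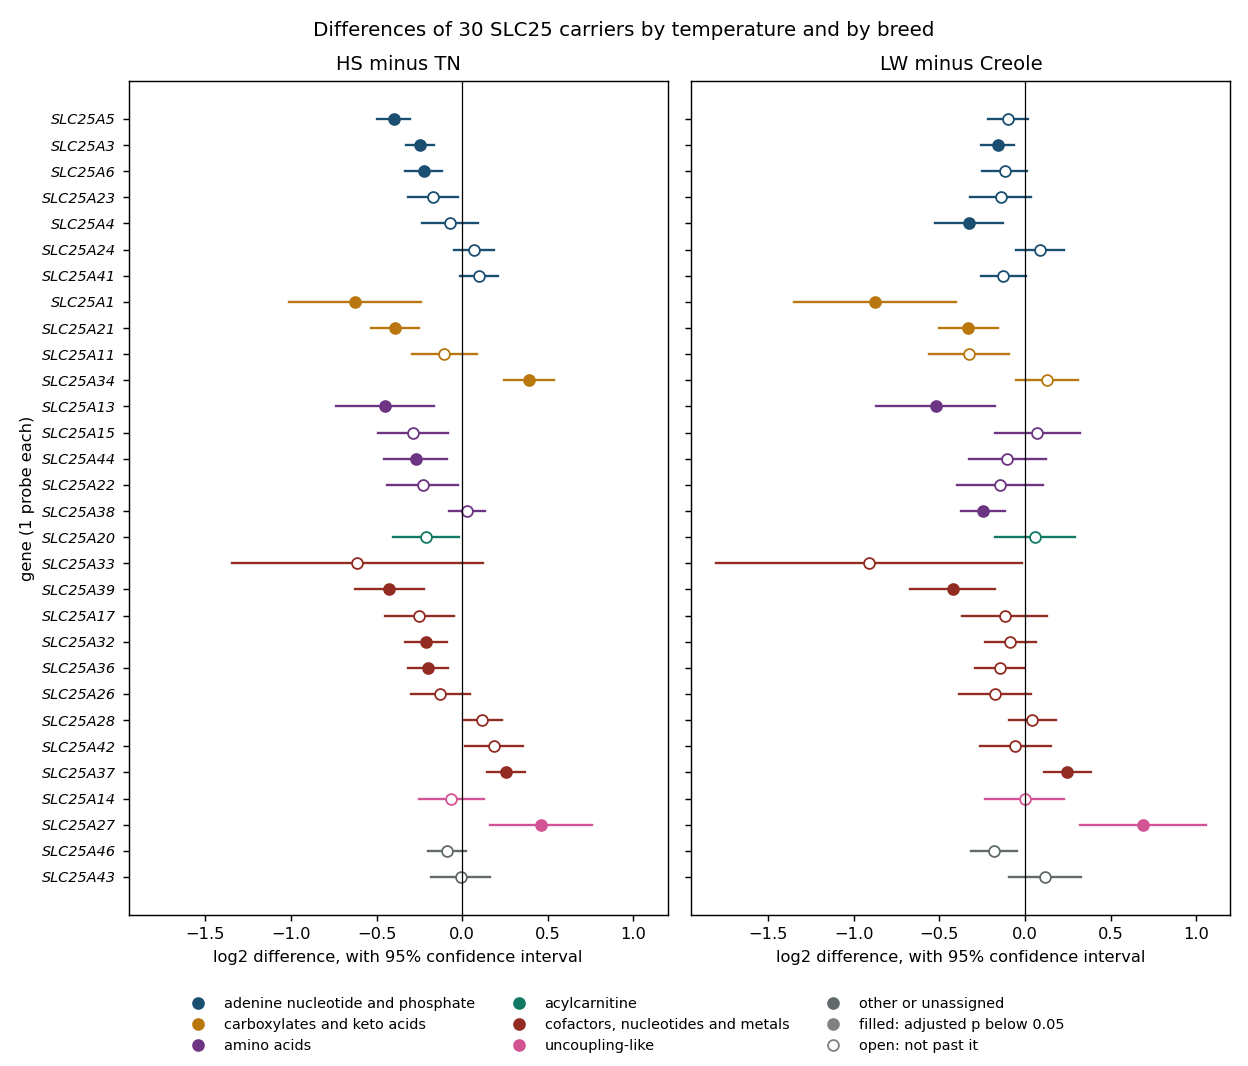
Log2 difference with its 95% confidence interval for 30 of the 31 tested carriers, HS minus TN on the left and LW minus Creole on the right, grouped by substrate class. Filled points passed the test (13 genes by temperature, 9 by breed), and most of them lie left of 0.

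The ADP/ATP and phosphate carriers exchange the substrates and products of ATP synthase. Of 7 tested genes of this class, SLC25A5, SLC25A3 and SLC25A6 were lower under heat, and none was higher. Over all named genes 7.66% were lower and 4.92% higher, and each class holds few genes. SLC25A5, the ADP/ATP carrier also known as ANT2, lay at log2 levels of 12.64, 12.79 and 12.94 in the Creole TN pigs, 12.64, 12.72, 12.83 and 12.85 in F1 TN and 12.77, 12.78, 12.84 and 12.90 in LW TN. Under heat it lay at 12.39, 12.42, 12.45, 12.60 and 12.63 in Creole, 12.27, 12.32, 12.36, 12.43 and 12.54 in F1, and 12.21, 12.26, 12.28, 12.35 and 12.43 in LW. All 15 HS arrays were below all 11 TN arrays, although the closest values were only 12.63 and 12.64. Such a separation of both temperatures was found for 8 of 44703 tested probes (0.0179%), and for no other member probe. SLC25A5 fell by 0.40 ± 0.05 (SE) on the log2 scale, so that intensity fell by 24.2% (adjusted p = 3.28e-05, limma). The other 5 probes of SLC25A5 fell as well, by 0.36 to 0.49, including both probes printed above (-0.36 and -0.45).

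SLC25A6, the ADP/ATP carrier also known as ANT3, spanned 16.45 to 16.85 with a median of 16.74 in TN and 16.02 to 16.68 with a median of 16.48 in HS pigs. The ranges overlapped, but 14 of 15 HS arrays lay below the TN mean of their own breed. The difference was -0.23 ± 0.05 (SE, adjusted p = 0.00586, limma), and all 7 probes of the gene passed the test with differences between -0.24 and -0.21. The overlapping pair printed above gave -0.22 at either position. SLC25A4, the ADP/ATP carrier known from heart and skeletal muscle (ANT1), did not pass the test at either of its 2 probes. It lay between 13.27 and 13.89 in TN and between 12.95 and 13.88 in HS pigs, with a median of 13.69 in both, and its difference was -0.07 (95% confidence interval -0.23 to 0.09). The skeletal muscle markers had a median difference of 0.56 by temperature, positive for all 11 (0.06 to 0.67) with none past the test, and their part in the values of SLC25A4 was not tested.

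The 3 ADP/ATP carriers were therefore compared with each other within each array, a test chosen after their values were seen. The log2 difference of SLC25A4 and SLC25A5 moved from 0.88 ± 0.19 (n = 11) among TN pigs to 1.22 ± 0.23 (n = 15, both SD) among HS pigs, a shift of 0.33 averaged over breeds (two-sided permutation test within breeds, 100000 permutations, p = 0.00036, adjusted p = 0.00144 over 4 pairs). Because the pairs were picked for the differences already seen on the same arrays, these p-values describe the arrays and are not independent evidence. For SLC25A4 against SLC25A6 the shift of 0.16 did not pass (permutation p = 0.151, adjusted p = 0.151), and for SLC25A6 against SLC25A5 the shift of 0.17 did not pass after adjustment (permutation p = 0.0291, adjusted p = 0.0583). In the RefSeq gene table of the pig (assembly Sscrofa11.1) SLC25A5 is the direct neighbour of SLC25A43, a carrier of unassigned substrate, whose 4 tested probes gave differences between -0.09 and -0.01 with none past the test.

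**Figure D2:**
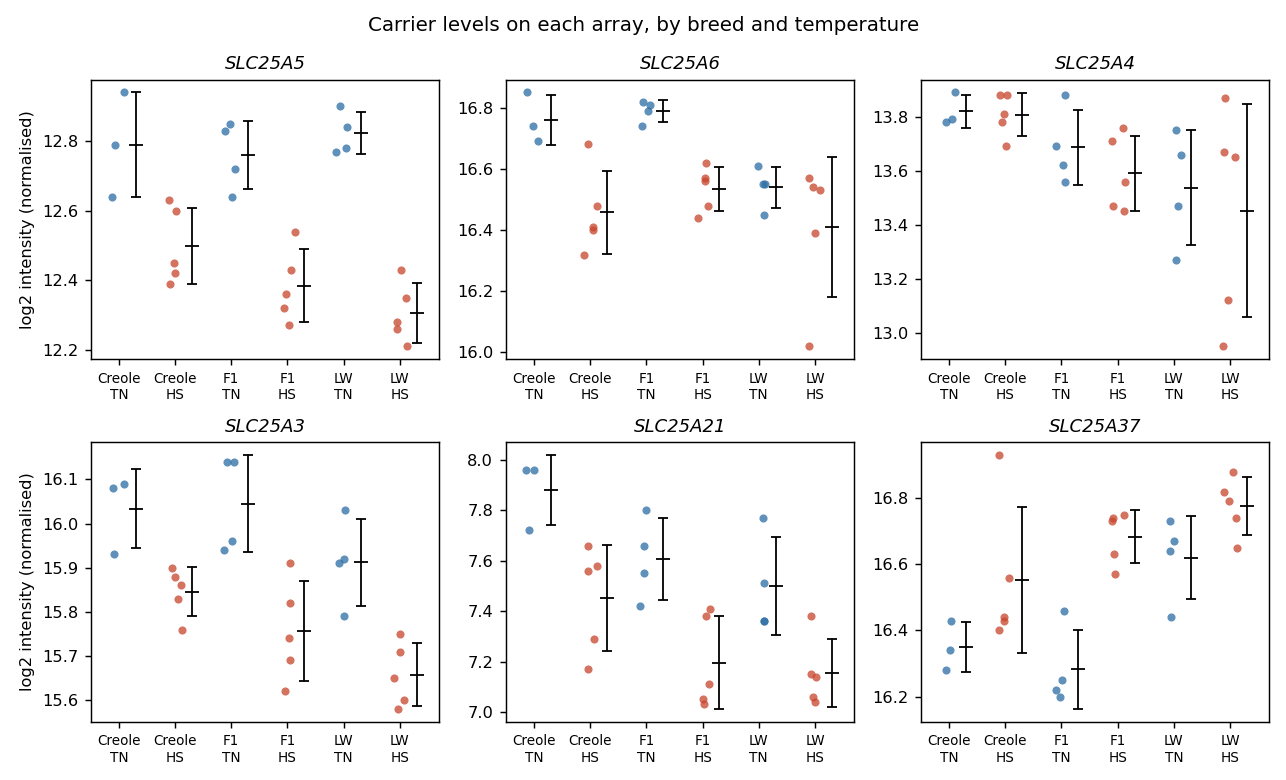
Normalised log2 intensity of 6 carriers on each of the 26 arrays (TN blue, HS red), with the mean and SD of each group in black. For SLC25A5 the HS arrays (12.21 to 12.63) lie below the TN arrays (12.64 to 12.94) in each breed, whereas SLC25A4 does not separate by temperature and SLC25A37 is higher in HS.

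SLC25A3, which imports the phosphate used by ATP synthase, was read by 11 probes, and all 11 were lower in HS. Its brightest probe spanned 15.79 to 16.14 in TN (median 15.96) and 15.58 to 15.91 in HS (median 15.75). All 15 HS arrays lay below the TN mean of their breed, and 9 lay below every TN array. The difference was -0.25 ± 0.04 (SE, adjusted p = 0.000347, limma), so that intensity fell by 15.7%. Across the 11 probes the difference ranged from -0.38 to -0.23. The 2 brightest probes, which share 56 bases, gave the smallest sizes (-0.25 and -0.23). Of the other tested genes of the class, the ATP-Mg/phosphate carriers SLC25A23, SLC25A24 and SLC25A41 gave -0.17, 0.07 and 0.10 with adjusted p of 0.116, 0.463 and 0.241.

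**Figure D3:**
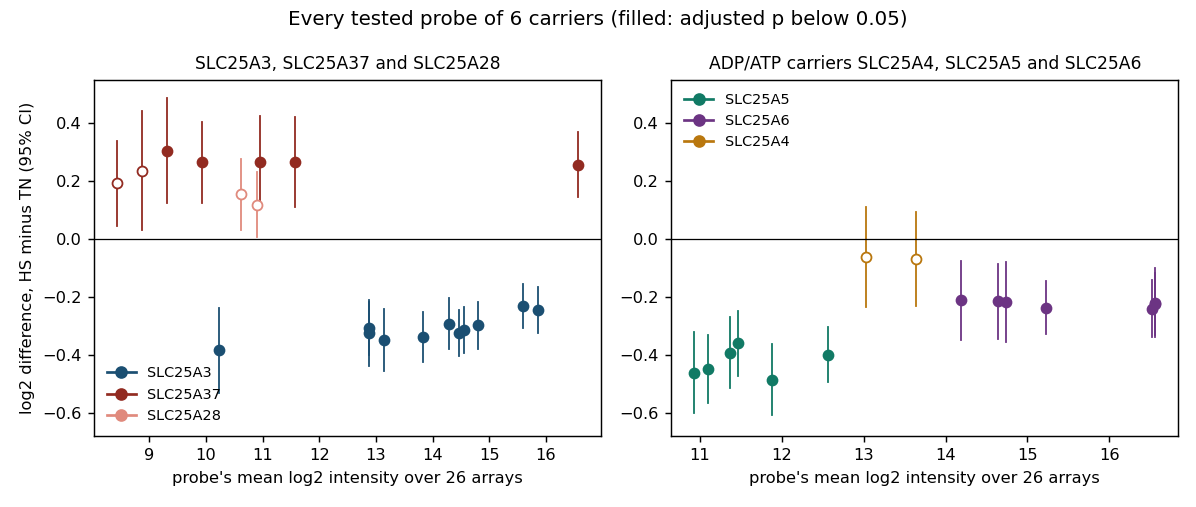
Difference between HS and TN for every tested probe of 6 carriers, with its 95% confidence interval, against the mean log2 intensity of the probe. All 11 probes of SLC25A3, 6 of SLC25A5 and 7 of SLC25A6 are below 0 and filled, both probes of SLC25A4 are near 0, and all 7 probes of SLC25A37 are above 0.

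Among the genes classed as carriers of carboxylates and keto acids, 2 of 4 tested were lower and 1, SLC25A34, was higher. Over all named genes the shares were 7.66% and 4.92%. The class was assigned by gene name, and the substrate of SLC25A34 was not tested. SLC25A1, the citrate carrier, spanned 12.11 to 13.33 in TN with a median of 12.72, and 10.84 to 13.12 in HS with a median of 12. The TN and HS ranges overlapped widely, and 12 of 15 HS arrays lay below the TN mean of their breed. It fell by 0.63 ± 0.19 (SE) on the log2 scale, which was the largest fall among the 10 genes that passed (adjusted p = 0.0287, limma). The call was lost (adjusted p = 0.05 to 0.0582) without Creole TN replicate 1, F1 TN replicate 3, LW TN replicate 2 or LW TN replicate 3, and without the breed term (adjusted p = 0.112). The second probe printed above, which has the reverse complement of the first and so is not a second reading of the same strand, was far dimmer at a mean of 7.12 against 12.4. It gave -0.44 ± 0.14 (SE, adjusted p = 0.0445). Over the 26 arrays the 2 probes nevertheless followed each other closely, with r = 0.962, and r = 0.934 within groups. Their differences are therefore not independent of each other.

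SLC25A21 spanned 7.36 to 7.96 in TN and 7.03 to 7.66 in HS, with medians of 7.66 and 7.17. Each of the 15 HS arrays lay below the TN mean of its breed. It fell by 0.39 ± 0.07 (SE, adjusted p = 0.000721, limma), and its second probe gave -0.27 (adjusted p = 0.0345). SLC25A34, named here only from the similarity of its probe to the gene of another species, spanned 10.26 to 10.64 in TN and 10.47 to 11.22 in HS. All 15 HS arrays lay above the TN mean of their breed and 12 lay above every TN array. It was 0.39 ± 0.07 (SE) higher under heat, or 31.2% (adjusted p = 0.00107, limma). SLC25A11, the oxoglutarate/malate carrier of the malate-aspartate shuttle, gave -0.10 at its brighter probe and 0.11 at the other, and neither passed.

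Of 5 tested carriers of amino acids, 2 were lower and none was higher, against 7.66% and 4.92% of all named genes. SLC25A13, the aspartate/glutamate carrier citrin, spanned 7.65 to 8.76 in TN (median 8.17) and 7.11 to 8.65 in HS (median 7.60), and 13 of 15 HS arrays lay below the TN mean of their breed. The difference was -0.45 ± 0.14 (SE, adjusted p = 0.0343, limma). It was past the threshold in 18 of the 26 fits that left out 1 array, and the adjusted p was 0.0564 with slide as a block and 0.0917 without the breed term. SLC25A44, a carrier of branched-chain amino acids, gave -0.27 ± 0.09 (SE, adjusted p = 0.0467) at a probe named only by similarity. This call held in only 8 of the 26 fits that left out 1 array. Its other 3 probes gave -0.29, -0.06 and -0.05 and did not pass. The first pair of these have the same 60 bases and still differed from array to array by an SD of 0.41, against 0.12 for an identical probe pair of SLC25A46. The ornithine carrier SLC25A15 (-0.29, adjusted p = 0.0575), the glutamate carrier SLC25A22 (-0.23, adjusted p = 0.132) and the glycine carrier SLC25A38 (0.03, adjusted p = 0.756) did not pass. SLC25A38 was the brightest of the class, at a median of 11.94 in TN and 11.98 in HS.

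The carriers of cofactors, nucleotides and metals were the largest class, with 10 tested genes, of which 3 were lower and 1 was higher. The shares over all named genes were 7.66% and 4.92%. SLC25A39, the glutathione carrier, spanned 13.44 to 14.11 in TN (median 13.63) and 12.55 to 13.72 in HS (median 13.26). The HS arrays reached lower, and 9 of 15 were below every TN array. It fell by 25.5% in intensity, or by 0.43 ± 0.10 on the log2 scale (SE, adjusted p = 0.00634, limma). SLC25A32, the folate carrier, gave -0.21 ± 0.06 (SE, adjusted p = 0.0212), with its second probe at -0.30 (adjusted p = 0.0067). SLC25A36, a pyrimidine nucleotide carrier, gave -0.20 ± 0.06 (SE, adjusted p = 0.0241), whereas its other 2 probes, at -0.18 and -0.17, did not pass. Without LW TN replicate 2 its adjusted p was 0.0528. SLC25A17, the peroxisomal carrier of cofactors, missed the threshold at its brightest probe (-0.25, adjusted p = 0.0971) and passed it at the other (-0.36, adjusted p = 0.0119).

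SLC25A37, mitoferrin-1, which imports iron for haem and iron-sulphur clusters, moved in the opposite direction. It spanned 16.20 to 16.73 in TN (median 16.43) and 16.40 to 16.93 in HS (median 16.73). All 15 HS arrays lay above the TN mean of their breed, and 8 lay above every TN array. The difference was 0.26 ± 0.05 (SE), or 19.4% (adjusted p = 0.00358, limma). All 7 probes of the gene gave a positive difference, from 0.19 to 0.31, and 5 of them passed. The difference was 0.13 (adjusted p = 0.0892) with the processed signal scaled by its 75th percentile. That alternative changed both the signal and the scaling, so the loss of the call cannot be put down to either alone. SLC25A37 is known for its role in erythroid cells, so the red blood cell markers are given beside it. Of 8 such markers 5 were tested, and none was higher in HS. HBB was -0.85 ± 0.21 (SE, adjusted p = 0.011), EPB42 was -0.38 (adjusted p = 0.0294), and the mean level of the 5 spanned 8.57 to 9.17 in TN and 8.10 to 8.96 in HS. Their part in the result was not tested. SLC25A28, the gene of mitoferrin-2, gave 0.12 and 0.15 at the 2 probes that carry its name, neither past the test. Within arrays the difference of SLC25A37 and SLC25A28 did not shift beyond the spread between arrays (0.13, permutation p = 0.113, adjusted p = 0.15).

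The acylcarnitine carrier SLC25A20 was the one tested member of its class. It spanned 12.45 to 13.25 in TN (median 12.95) and 12.24 to 13.03 in HS (median 12.68), and its difference of -0.21 did not pass (95% confidence interval -0.40 to -0.02, adjusted p = 0.141). With the processed signal scaled by its 75th percentile the difference was -0.30 (adjusted p = 0.0334). Of the 2 uncoupling-like carriers, SLC25A27 (UCP4) was higher and SLC25A14 (-0.06) did not pass. SLC25A27 spanned 9.89 to 11.91 in TN (median 11.11) and 10.53 to 12.04 in HS (median 11.42). The difference was 0.46 ± 0.15 (SE, adjusted p = 0.0388, limma), which held in 13 of the 26 fits that left out 1 array. Its second probe gave 0.15 (adjusted p = 0.409). Carriers of other or unassigned substrate, SLC25A43 and SLC25A46, did not pass at any probe.

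Transport genes and enzymes beside the named carriers were described from 2 lists. Of 37 further mitochondrial transport genes (channels, pyruvate and calcium carriers, protein import, acylcarnitine enzymes, and the family members UCP1, UCP2, UCP3, MTCH1 and MTCH2 that carry no SLC25A name), 27 were tested, 5 were lower in HS and none was higher, with a median difference of -0.09, where 7.66% of all named genes were lower and 4.92% higher. The porins VDAC1 (-0.34, adjusted p = 0.00416) and VDAC2 (-0.26, adjusted p = 0.00974), which let metabolites through the outer membrane, were among them, as were the carnitine palmitoyltransferase CPT2 (-0.40, adjusted p = 0.000955) and the import pore TOMM40 (-0.23, adjusted p = 0.0169). Of 23 enzymes that make or use the carried metabolites, 20 were tested, 5 were lower and none was higher, with a median of -0.13. These were the malic enzyme ME1 (-1.30, adjusted p = 0.00141), malate dehydrogenase MDH2 (-0.50, adjusted p = 0.00354), citrate synthase CS (-0.33, adjusted p = 0.000449), IDH3A (-0.29, adjusted p = 0.0211) and the aspartate aminotransferase GOT2 (-0.28, adjusted p = 0.0222). ATP citrate lyase ACLY, which cleaves the citrate that SLC25A1 exports, was at -0.82 and missed the threshold (adjusted p = 0.0718).

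Markers of other cells also differed with temperature. Of 6 proliferation genes, 5 were lower in HS (CDK1 at -0.99, adjusted p = 0.000296), and their mean level spanned 7.76 to 8.72 in TN and 6.91 to 8.25 in HS. Of 6 fibroblast genes, 4 were higher (COL1A2 at 0.42, adjusted p = 0.0281), with mean levels of 13.9 to 15.2 in TN and 14.6 to 15.5 in HS. The 7 adipocyte markers had a median difference of -0.06 (-0.175 to 0.173), and 1 was higher past the test (ADIPOQ at 0.16, adjusted p = 0.0384). Among 5 endothelial markers 1 was lower (CDH5 at -0.23, adjusted p = 0.0254). None of 6 macrophage markers passed. The part of these cells in the falls of the carriers was not tested. Without the 2 arrays of highest muscle marker level (Creole HS replicate 3 at 14.14 and LW HS replicate 1 at 13.32, with the next at 12.72), 15 carriers passed, 12 lower and 3 higher, among them all 13 of the full fit.

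Within each slide, the direction could be read without a model, although breeds were not balanced there. SLC25A5 was lower in HS on all 5 slides, by 0.31 to 0.48, and SLC25A34 was higher on all 5, by 0.31 to 0.48. SLC25A3 (-0.36 to -0.09), SLC25A6 (-0.43 to -0.03), SLC25A21 (-0.63 to -0.15), SLC25A39 (-0.90 to -0.04) and SLC25A1 (-1.27 to -0.25) were lower on all 5 slides. SLC25A37 was higher on all 5 (0.13 to 0.38), whereas SLC25A27 was higher on 4 and lower on 1 (-0.20 to 0.97). With slide as a fixed block, 12 of the 13 genes passed.

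Within single breeds few carriers passed. In Creole pigs none did (0 of 31 genes, 11 at an unadjusted p under 0.05; 0.0775% of all named genes passed). In F1 pigs SLC25A5 (-0.38, adjusted p = 0.0322) and SLC25A37 (0.40, adjusted p = 0.0434) passed, against 0.426% of all named genes. Neither passed with slide as a block, nor when any one of replicates 1 to 3 of F1 TN or 2, 3 and 5 of F1 HS was left out. The count was 1 without Creole TN replicate 1, Creole TN replicate 3, Creole HS replicate 4 or LW TN replicate 1, and 3 at most. In LW pigs SLC25A5 (-0.51, adjusted p = 0.00187) and SLC25A34 (0.58, adjusted p = 0.0148) passed, against 1.42%. The count was 1 with slide as a block and without LW TN replicate 2 or 3, and 5 without Creole HS replicate 5. The interaction of breed and temperature was not past the threshold for any member (0 of 31 genes, and by brightest probe none at an unadjusted p under 0.05, limma F test; 0% of 10327 named genes). Of all 88 member probes, 3 had an unadjusted p under 0.05 in this F test (0.0136 and 0.0276 for SLC25A5, 0.0311 for SLC25A14), and none passed. The response to heat was therefore not shown to differ between breeds, in groups of 3 to 5 pigs.

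Between the parental breeds, carriers were more often lower in LW than in Creole pigs. With temperature in the model, 8 of 31 genes were lower and 2 were higher in LW, against 8.6% and 6.68% of all named genes, and the median difference was -0.13 beside -0.00781 over all named genes. Both comparisons rest on the same 26 arrays. SLC25A1 had the largest difference of the 10, at -0.88 ± 0.23 (SE, adjusted p = 0.0123, limma). It spanned 11.25 to 13.33 in 8 Creole pigs (median 12.92), 11.73 to 13.16 in 9 F1 pigs (median 12.48) and 10.84 to 12.72 in 9 LW pigs (median 11.72). Only 1 LW array lay below every Creole array, so the breeds overlapped. The probe on the opposite strand gave -0.75 (adjusted p = 0.00678).

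SLC25A13 (-0.52 ± 0.17, adjusted p = 0.0394), SLC25A39 (-0.42 ± 0.12, adjusted p = 0.0204), SLC25A21 (-0.33 ± 0.08, adjusted p = 0.0097) and SLC25A3 (-0.16 ± 0.05, adjusted p = 0.0241; errors are SE, limma) were lower both in LW and in HS pigs. Of the 11 probes of SLC25A3, 10 passed by breed, whereas the second probe of SLC25A21 gave -0.25 and did not pass (adjusted p = 0.109). Without Creole HS replicate 1 the adjusted p of SLC25A3 was 0.05, and the call of SLC25A13 held in 13 of the 26 fits that left out 1 array. Without the 2 arrays of highest muscle marker level, the adjusted p rose to 0.125 for SLC25A13, 0.0705 for SLC25A39 and 0.0593 for SLC25A3, and 7 genes passed in all.

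SLC25A4 and SLC25A38 passed the test by breed and not the test by temperature. SLC25A4 spanned 13.69 to 13.89 in Creole (median 13.80), 13.45 to 13.88 in F1 (median 13.62) and 12.95 to 13.87 in LW pigs (median 13.65), and 7 of 9 LW arrays lay below every Creole array. The difference was -0.33 ± 0.10 (SE, adjusted p = 0.0252, limma), and its second probe gave -0.41. Without LW HS replicate 2 the adjusted p was 0.0519, and without LW HS replicate 3 it was 0.055. SLC25A4 is abundant in muscle, and the muscle markers had a median difference of -0.92 in LW against Creole pigs, with none of 11 past the test. Without the 2 arrays of highest muscle marker level the difference of SLC25A4 was -0.35 (adjusted p = 0.0357). The part of muscle in it was not tested. SLC25A38, which carries glycine for haem synthesis, was lower in LW by 0.25 ± 0.06 (SE, adjusted p = 0.0102), with 6 of 9 LW arrays below every Creole array.

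SLC25A5 stayed outside the call at its brightest probe (-0.10, adjusted p = 0.252), although 3 of its 6 probes were lower in LW. At the level of probes, 27 of 88 were lower and 2 were higher, against 7.43% and 6.89% of all tested probes. The genes of the 2 lists showed both directions. Of 27 tested transport genes 4 were lower in LW (among them VDAC1 at -0.43, VDAC3 at -0.38 and ABCB6 at -0.39) and the uncoupling protein UCP2, itself of the SLC25 family, was higher (0.62, adjusted p = 0.0263). Of 20 tested enzymes 4 were lower (ME1 at -0.96, GOT2 at -0.37, CS at -0.33 and GPD1 at -0.27) and IDH2 was higher (0.23, adjusted p = 0.0401). Over all named genes 8.6% were lower and 6.68% higher. Of the markers, 3 of 6 fibroblast genes and the endothelial KDR (0.87, adjusted p = 0.00136) were higher in LW, and leptin, LEP, was lower (-1.23, adjusted p = 0.0438). Their part in the breed differences of the carriers was not tested.

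In the other direction, SLC25A27 was higher in LW by 0.69 ± 0.18 (SE, adjusted p = 0.0115, limma). It spanned 9.89 to 11.73 in Creole (median 10.74), 10.83 to 11.91 in F1 (median 11.42) and 10.64 to 12.04 in LW pigs (median 11.31). Its second probe gave 0.23 and did not pass (adjusted p = 0.281). SLC25A37 gave 0.25 ± 0.07 (SE, adjusted p = 0.0157) at its brightest probe, but only this 1 of 7 probes passed, 2 of the 7 were negative, and the mean of all 7 gave 0.09 (adjusted p = 0.483). By temperature all 7 had been positive.

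**Figure D4:**
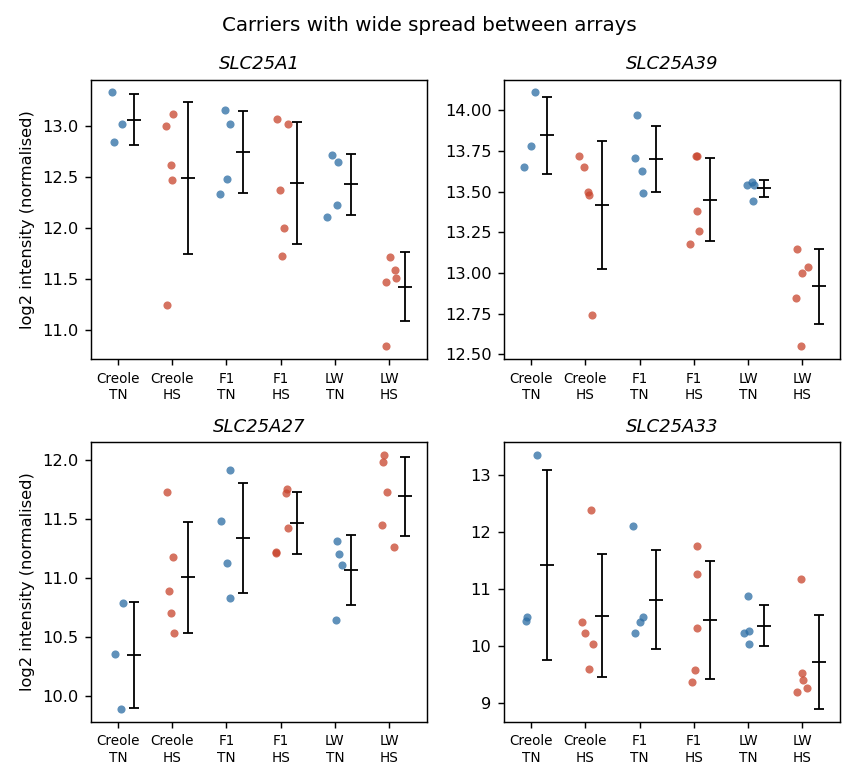
Normalised log2 intensity of SLC25A1, SLC25A39, SLC25A27 and SLC25A33 on each array (TN blue, HS red), with the mean and SD of each group in black. The LW HS pigs lie at 10.84 to 11.72 for SLC25A1, with a Creole HS pig among them at 11.25, and single arrays reach 13.35 for SLC25A33.

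In the cross few tests passed. No carrier passed the test against the mean of both breeds in F1 pigs (0 of 31 genes, limma). There 4 had an unadjusted p under 0.05, and 0% of named genes passed. None passed between F1 and Creole pigs either (0 of 31 genes, limma). Here 3 had an unadjusted p under 0.05, and 0.223% of named genes passed. SLC25A27 was 0.68 ± 0.18 higher in F1 than in Creole pigs without passing (SE, adjusted p = 0.108, limma). At most 1 gene passed this comparison under an alternative or without a single array. By its brightest probe only SLC25A11 was past the threshold between F1 and LW pigs, 0.41 ± 0.11 higher in F1 (SE, adjusted p = 0.0363; 4.34% of named genes passed). The second probe of SLC25A11 gave 0.15 (adjusted p = 0.526), and 3 of the 11 probes of SLC25A3, though not the brightest, were higher in F1 (0.17, 0.17 and 0.25, adjusted p = 0.0417, 0.0402 and 0.0124). The count of genes was 0 with slide as a block, and 0 when any one of these arrays was left out: replicates 1 and 3 of F1 TN, 1, 4 and 5 of F1 HS, 1 and 3 of LW TN, and 2, 3 and 4 of LW HS. It was 2 without F1 HS replicate 2, F1 TN replicate 2 or F1 TN replicate 4, and 4 without Creole HS replicate 5. Within HS pigs alone, SLC25A1 (-1.07, adjusted p = 0.0358) and SLC25A38 (-0.29, adjusted p = 0.0389) were lower in LW than in Creole, against 6.27% of named genes. Neither passed with slide as a block or without the 2 arrays of highest muscle marker level, and no gene passed when any one of replicates 1 to 3 of Creole HS or of LW HS was left out. The count was 1 without Creole HS replicate 4 or LW HS replicate 4, 4 without LW HS replicate 5 and 8 without Creole HS replicate 5. Within TN pigs none passed (0 of 31 genes, 8 at an unadjusted p under 0.05; 0.329% of named genes).

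Members also differed in how far single pigs of one group lay apart. The SD within groups had a median of 0.21 over the 31 genes (brightest probes) and 0.18 over all tested probes, an unlike set. It was lowest for SLC25A3 (0.09) and SLC25A5 (0.10) and highest for SLC25A33, a pyrimidine nucleotide carrier (1.00), followed by SLC25A1 (0.50). SLC25A33 reached 13.35 in a Creole TN pig, 12.38 in a Creole HS pig and 12.10 in an F1 TN pig, whereas its medians were 10.43 in TN and 10.04 in HS. Its differences of -0.61 by temperature and -0.91 by breed were large in size but did not pass (adjusted p = 0.278 and 0.164).

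Pairs of carriers were also compared among pigs of the same group. Over the 26 arrays, after the mean of each group was taken out, 465 pairs of genes were compared, of which 23 were positively and 14 negatively correlated past an adjusted p of 0.05 (two-sided permutation tests, 100000 permutations, Benjamini-Hochberg over the pairs). The median r over the 465 pairs was 0.07. The called pairs all had an r of at least 0.547 in size, which was reached with a positive sign by 4.95% of member pairs and 2.07% of all pairs of named genes, and with a negative sign by 3.01% and 1.78%. SLC25A1 and SLC25A11, which both carry carboxylates, had Pearson's r = 0.83 and Spearman's rho = 0.78 (permutation p = 1e-05 for both, the smallest possible, adjusted p = 0.00155 and 0.00232). SLC25A11 and SLC25A39 had r = 0.83 and rho = 0.80 (permutation p = 1e-05 for both, adjusted p = 0.00155 and 0.00232). Without the 2 arrays farthest from the median these values of r were 0.78 and 0.72, and with slide means taken out they were 0.83 and 0.87. On the 2 slides with 6 or more arrays, r was 0.86 and 0.63 for the first pair and 0.87 and 0.67 for the second.

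SLC25A13, which exports aspartate, and SLC25A20, which imports acylcarnitines, went in opposite directions, with r = -0.72 and rho = -0.70 (permutation p = 2e-05 and 0.00013, adjusted p = 0.00232 and 0.0101). SLC25A37 ran opposite to SLC25A11, with r = -0.71 and rho = -0.59 (permutation p = 0.00015 and 0.00209, adjusted p = 0.00775 and 0.0444). Without the 2 farthest arrays r was -0.70 for the first of these pairs and -0.51 for the second. With slide means taken out they were -0.70 and -0.74, and on the 2 larger slides r was -0.84 and -0.70 for the first pair and -0.48 and -0.97 for the second. All genes of a pair were read on the same arrays, which thus share the RNA sample and its quality. The named pairs include the highest and the lowest r of the 465. Their values on fewer arrays or on single slides reuse the same arrays and are not independent evidence. The part of the mixture of cells in these correlations was not tested.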

How the data were processed

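RNA of SCAT from 26 pigs was labelled with Cy3 and hybridised to one-colour Agilent porcine arrays with 60-base probes. Per the labels, images were read with Agilent Feature Extraction 10.10.1.1 and values were made with limma. For each spot the deposited scanner output gives the median and mean intensity, the median intensity of the local background and a processed intensity, none scaled between arrays. Other deposited columns are flags for spots well above background, saturated or non-uniform. Values on the log2 scale that the authors had quantile-normalised from the median intensity were deposited as the series matrix and served as an alternative.

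Median intensities were quantile-normalised without background correction, non-uniform spots were set to missing, and the test took in probes with a well-above-background flag on 8 or more arrays, using R 4.3.3 with limma 3.58.1 (lmFit, and eBayes with an intensity trend), with data.table (version 1.17.8). Breed and temperature were additive terms, and contrasts within breeds and the interaction came from 6 group means. P-values were adjusted by Benjamini-Hochberg over all 44703 probes, with a threshold of 0.05. The study's random effects of pen, slaughter day and parents are not in the labels and were left out, so p-values measure the spread between pigs as if they were unrelated. The number of arrays limits the precision. Quantile normalisation assumes like distributions on all arrays.

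Each gene was represented by its tested probe of highest mean level. Described genes were those past the threshold, up to 12 with the smallest p per comparison where more passed, and the brightest of each substrate class. SLC25A44, the 13th by p under heat stress, was described beyond this number. Members, substrate classes, partner lists and marker lists were chosen with earlier results of these data known. Probes were named from the gene name, accession or description in the files and the gene annotation of RefSeq (Sscrofa11.1), which was used for names and neighbours only, since the genome build of the array design is not given in the sources used here. Protein and promoter sequences were not used here. A few genes that enter the counts are not reported here by name or drawn. Scripts were tested on simulated data. Alternatives covered background correction, scaling, the series matrix, the filter, slide, array weights, the variance trend, the probe per gene, the breed term and each array left out.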

Additional observations from a re-analysis of the deposited data

Results flagged for a closer look

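Of 90 sets of values (5 groups of 4 or 5 arrays for 18 described genes), 4 held a value past Dixon's limit for the ratio of the gap to the range. Chance gives about 1 in 20 sets, so 4 of 90 is no more than chance gives. SLC25A1 in LW HS replicate 3 was at 10.84 against 11.47 to 11.72 in the other 4 arrays (ratio 0.714). SLC25A39 in Creole HS replicate 5 was at 12.74 against 13.48 to 13.72 (ratio 0.757). F1 TN replicate 3 stood apart for 2 genes, with SLC25A20 at 12.45 against 13.14 to 13.25 (ratio 0.855) and SLC25A36 at 9.66 against 9.41 to 9.44 (ratio 0.872).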

How the results depend on the processing

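No analysis paired by litter or pen was possible, because neither is part of the labels. The replicate numbers used here only count the arrays of each group in sample order. The main count of 13 carriers between HS and TN pigs was 9 to 15 under other background corrections, scalings, filters and models, and 15 without the 2 arrays of highest muscle marker level, an alternative chosen after seeing the data. Leaving out single arrays gave 8 (without LW TN replicate 2) to 14. SLC25A3, SLC25A5, SLC25A6, SLC25A21, SLC25A32, SLC25A34 and SLC25A39 passed under every alternative and without any single array. SLC25A27 (adjusted p up to 0.166) and SLC25A44 (up to 0.134) lost their calls without the filter, with the mean of a gene's probes and without the breed term. With the mean of probes SLC25A36 did too (0.0794). The count of 10 by breed was 7 to 12 under alternatives and 8 to 11 without single arrays.

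Within F1 pigs the main count of 2 was 1 with the processed signal, without the filter and without the trend, 0 with the slide block, and 0 to 3 without single arrays. Within LW pigs the count of 2 was 1 with the slide block, 4 with array weights and 1 to 5 without single arrays. Between F1 and Creole the count of 0 became 1 with array weights and 0 to 1 without single arrays. Between F1 and LW the count of 1 was 0 with the slide block, 4 with array weights, 3 without the 2 arrays of high muscle markers and 0 to 4 without single arrays. Between LW and Creole under heat the count of 2 was 5 with the processed signal, 1 without the filter, 0 with the slide block, 4 with the mean of probes, 0 without the 2 arrays of high muscle markers, and 0 to 8 without single arrays (8 without Creole HS replicate 5). SLC25A38 by temperature turned to -0.02 with the processed signal, and SLC25A43 spanned -0.04 to 0.03 without single arrays. Neither had passed the test. The cause of these changes was not tested. Dim probes limit precision: 9 of the 88 tested probes were not well above background on all arrays.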
